A study of Homo sapiens with 16 samples.

Results

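The mRNAs of the mitochondrial ribosomal proteins were followed through a proximity-labelling experiment in HEK293T, a transformed human embryonic kidney line. Members were the protein-coding genes of the deposited table whose symbol begins with MRPL or MRPS, then a digit, without a hyphen. There were 78 of them, 49 MRPL and 29 MRPS, among 24878 genes with values. Each of the 78 had a value in all 16 libraries, and each passed the filter on low values in both fits used below, so the counts given here cover all members. The lowest member value in any library was 6.87 CPM (counts per M of reads, M for mega) and the highest was 529 CPM. Sorted by the ribosome they belong to, 51 encode proteins of the large subunit and 26 proteins of the small subunit. Despite their MRPS symbols, MRPS18A and MRPS30 sit in the large subunit. MRPS36 carries the family symbol but is known as a component of the α-ketoglutarate dehydrogenase complex and was counted with neither subunit.

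The tested cells transiently expressed BS2, an esterase that unmasks the probe AC-2 so that it reacts with RNA nearby. BS2 carried a tag for the cytosol (2 pull-down libraries, titled cytoplasmic), the nucleus (3), the mitochondria (2) or, as NIK3x-BS2, the nucleolus (2). The reference cells were WT and non-transfected (NT; 3 pull-downs). Cells of every group, NT included, received 50 µM AC-2 for 3 min and 1 mM PMSF to stop the reaction, and the BS2 groups had been transfected by lipofection 24 h before. Labelled RNA was joined to biotin, enriched and captured by its poly(A) tail. The share of cells that took up a plasmid is not given, and plasmid and transfection both separate the BS2 groups from NT, so their effects cannot be told apart. Unenriched input RNA was sequenced as 1 library each for cytosolic BS2, nuclear BS2, mitochondrial BS2 and NT. No nucleolar input was used here. Replicates are titled biological, but whether they came from separate cultures is not said, so the spread behind each p-value could be a technical one.

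Mammalian mitochondria keep their own ribosomes, which translate the few mRNAs of the mitochondrial genome, all of them for subunits of the respiratory chain and ATP synthase. All protein subunits of these ribosomes are encoded in the nucleus. Their mRNAs are made and processed in the nucleus and translated in the cytosol, in part close to the mitochondrial surface, and the proteins are then imported and assembled on mitochondrial rRNA. Many members descend from bacterial ribosomal proteins, and others were added in the mitochondrial lineage. Pull-down values here are levels of a transcript among captured RNA, and fewer cells carrying a transcript and less of it per cell cannot be told apart.

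Estimated depth ranged over 6.34 to 20.01 M reads by library. The kidney and neuronal genes known from this line were present, with NEFL at 58.6 to 170 CPM, NEFM at 90.2 to 274 CPM, LHX1 at 9.67 to 23.9 CPM and PAX2 at 3.15 to 5.99 CPM, while the blood marker PTPRC stayed at or below 0.456 CPM and the albumin gene ALB at or below 1.94 CPM. The collagen genes COL1A1 (9.48 to 22.1 CPM) and COL3A1 (3.29 to 14.7 CPM), listed as absent from the line, were detected. The mRNAs encoded by mitochondrial DNA made up 5.45% ± 0.862 of all CPM in mitochondrial BS2 pull-downs (SD, n = 2) and 2.03% ± 0.236 in NT pull-downs (SD, n = 3). They made up 2.94% ± 0.498 in nucleolar (SD, n = 2), 0.888% ± 0.0607 in cytosolic (SD, n = 2) and 0.876% ± 0.139 in nuclear BS2 pull-downs (SD, n = 3). Their share also differed between the inputs, at 3.29% for mitochondrial BS2 and 1.33% for NT, with 1 library each. The total CPM of the 3 nuclear BS2 pull-downs was 847391 to 914952, lower than in all other libraries, so that a scaling to a common total moved the median of all genes for nuclear BS2 against NT by more than 0.1 on the log2 scale, to 0.21 in place of -0.03.

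Member mRNAs differ widely in base composition, and this ran with the measured enrichment. As an illustration, the last 90 bases of the coding sequence are given, stop codon included. They are shown for the 4 members that fell most in pull-downs against inputs, then for 4 of the 5 that rose. MRPS24, the strongest rise against NT, comes last. The genes were picked by these same differences, so the stretches are no test of the relation. Sequences are from the GENCODE 29 transcripts on GRCh38, and capitals mark G and C.
MRPL41: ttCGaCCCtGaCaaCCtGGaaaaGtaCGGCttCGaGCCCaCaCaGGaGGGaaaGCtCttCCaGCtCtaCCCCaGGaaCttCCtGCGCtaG
MRPL54: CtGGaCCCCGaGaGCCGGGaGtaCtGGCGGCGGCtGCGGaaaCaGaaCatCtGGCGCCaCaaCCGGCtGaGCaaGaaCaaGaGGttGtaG
MRPL12: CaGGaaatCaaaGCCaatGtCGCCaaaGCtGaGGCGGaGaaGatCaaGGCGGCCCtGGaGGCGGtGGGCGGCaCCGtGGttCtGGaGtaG
MRPS12: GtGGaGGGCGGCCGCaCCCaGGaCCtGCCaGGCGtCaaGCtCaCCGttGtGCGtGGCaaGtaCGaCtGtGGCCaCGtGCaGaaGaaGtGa
MRPL42: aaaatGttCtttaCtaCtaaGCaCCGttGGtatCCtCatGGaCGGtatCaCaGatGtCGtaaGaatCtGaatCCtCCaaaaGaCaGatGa
MRPL35: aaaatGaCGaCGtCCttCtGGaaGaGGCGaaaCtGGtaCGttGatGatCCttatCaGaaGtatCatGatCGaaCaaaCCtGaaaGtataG
MRPL19: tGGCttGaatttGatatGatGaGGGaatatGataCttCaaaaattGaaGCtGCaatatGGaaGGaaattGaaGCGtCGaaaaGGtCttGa
MRPS31: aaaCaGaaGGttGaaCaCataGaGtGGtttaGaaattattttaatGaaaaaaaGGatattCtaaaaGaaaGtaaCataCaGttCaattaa
MRPS24: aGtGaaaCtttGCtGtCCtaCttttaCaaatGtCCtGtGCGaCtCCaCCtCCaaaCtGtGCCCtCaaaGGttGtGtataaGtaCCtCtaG
The shown stretch was 56.7% G or C in MRPL41, 62.2% in MRPL54, 61.1% in MRPL12 and 64.4% in MRPS12. It was 40% in MRPL42, 41.1% in MRPL35, 35.6% in MRPL19 and 24.4% in MRPS31, and 44.4% in MRPS24. Over the whole transcript, MRPL41, MRPL54, MRPL12 and MRPS12 had 71.9%, 60.9%, 64.6% and 58.4% G or C. MRPL42, MRPL35, MRPL19 and MRPS31 had 38.4%, 39.9%, 38.3% and 39.7%. The whole MRPS24 transcript had 58.3%, so its shown stretch is poorer in G and C than the transcript. The first 90 coding bases did not show the same split, since they were 71.1% G or C in MRPL19 and 60.0% in MRPS31, against 61.1% in MRPS12.

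As a family, the members took a smaller share of the captured RNA from BS2 cells than from NT cells. Their summed share of all CPM, which does not depend on how libraries were scaled, was 0.475% and 0.465% in the cytosolic BS2 pull-downs, 0.452%, 0.456% and 0.499% in the nuclear ones, 0.437% and 0.404% in the mitochondrial ones and 0.480% and 0.482% in the nucleolar ones, against 0.534%, 0.511% and 0.555% in NT pull-downs. Every BS2 pull-down therefore lay below every NT pull-down. All 12 pull-downs were in turn below the inputs, which stood at 0.711% (cytosolic), 0.728% (nuclear), 0.678% (mitochondrial) and 0.692% (NT). These shares were not tested. The small-subunit gene MRPS24 held a larger part of the sum in BS2 cells. Without it the share was 0.413%, 0.395% and 0.443% in the nuclear and 0.420% and 0.388% in the mitochondrial BS2 pull-downs, and 0.529%, 0.507% and 0.549% in NT pull-downs.

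**Figure D1:**
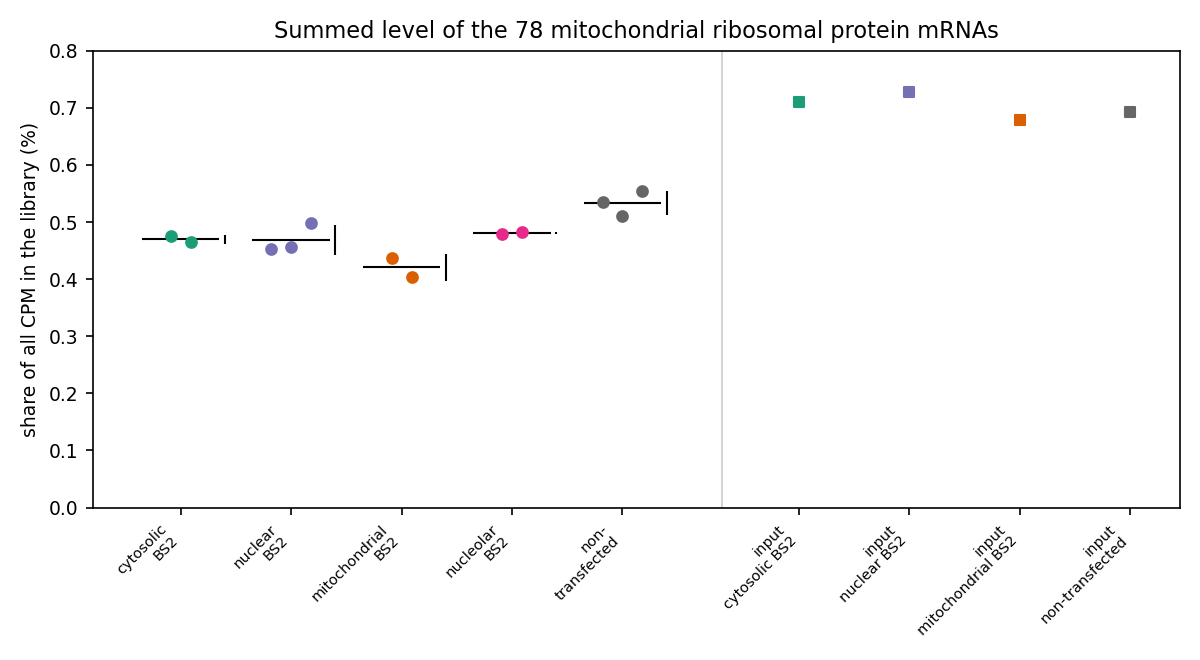
Summed CPM of the 78 members as a percentage of all CPM, 1 point per library, for BS2 pull-downs, NT pull-downs and inputs. The 9 BS2 pull-downs sit between 0.404% and 0.499%, the 3 NT pull-downs between 0.511% and 0.555% and the 4 inputs between 0.678% and 0.728%.

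Against NT, most members were lower in each BS2 pull-down. Differences come from limma on log2(CPM + 1), each with its standard error after the ± sign, and a gene was called at a Benjamini-Hochberg adjusted p under 0.05 over all 16133 genes tested. In nuclear BS2 pull-downs 66 of 78 members were lower and 2 higher, where 34.2% of all genes were called lower and 32.2% higher. In mitochondrial BS2 pull-downs 52 were lower and 4 higher, where 27.0% of all genes were lower and 28.9% higher. In nucleolar BS2 pull-downs 48 were lower and 11 higher, where 35.6% of all genes were lower and 30.1% higher. In cytosolic BS2 pull-downs 41 were lower and 5 higher, where 22.4% of all genes were lower and 28.9% higher. All 4 comparisons use the same 3 NT libraries, so they are not independent of each other.

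The median member difference from NT was -0.29 for cytosolic, -0.62 for nuclear, -0.47 for mitochondrial and -0.43 for nucleolar BS2, while the median of all genes was 0.02, -0.03, 0.00 and -0.08 in the same order. With CPM scaled to a common total, the nuclear count was 49 lower and 6 higher with a median of -0.34, and all genes then split into 7178 higher and 3660 lower calls in place of 5194 and 5511. The member median stayed below the median of all genes, by 0.59 with the deposited scaling and by 0.55 to 0.58 under a common total, median-of-ratios scaling and quantile normalization. Without the second cytosolic library fewer members were lower for cytosolic BS2. The number of all genes called there also moved when single libraries were left out. Over the 4 comparisons, 34 members were called lower in all 4, 70 in at least 1, and 11 were called higher in at least 1, where 16.4%, 44.9% and 43.3% of all genes were. MRPL46 was the single member with no call in any, at 28.0, 27.5 and 27.4 CPM in nuclear BS2 and 26.8, 21.7 and 32.7 CPM in NT pull-downs.

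**Figure D2:**
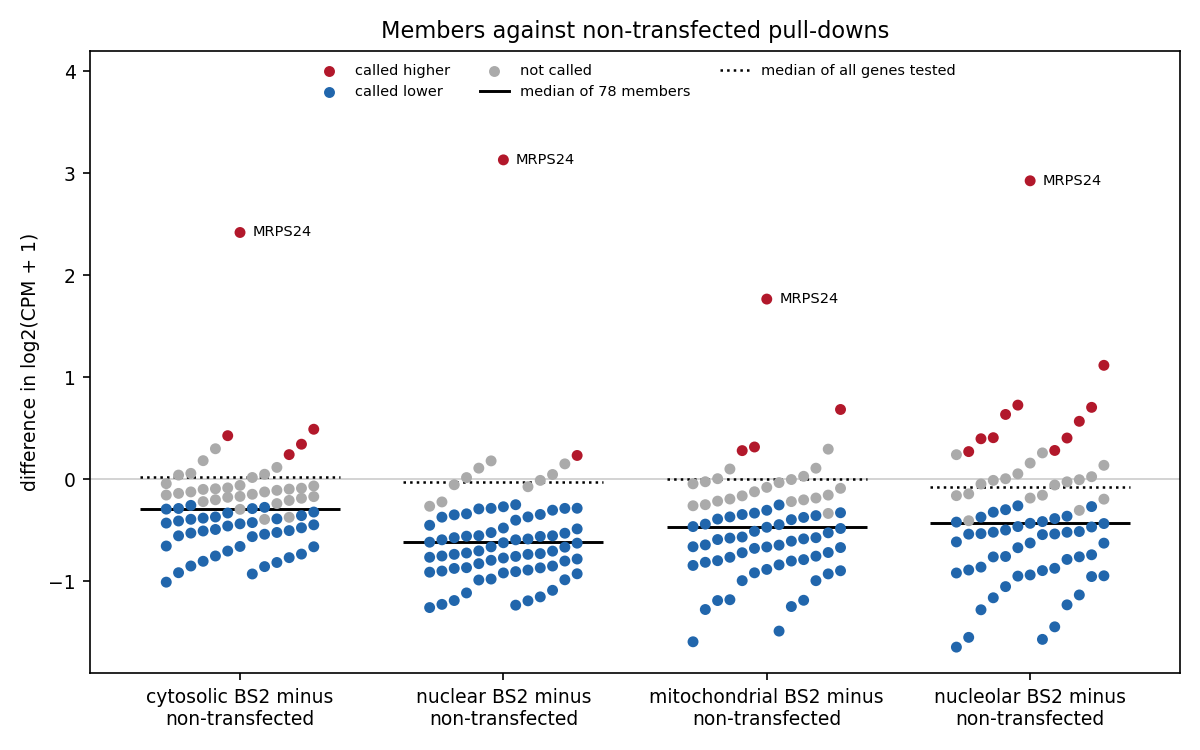
Each point is 1 of the 78 members, placed by its difference in log2(CPM + 1) between a BS2 pull-down group and the NT pull-downs, with colours for calls at adjusted p under 0.05 in limma. The black line marks the member median (-0.29, -0.62, -0.47 and -0.43) and the dotted line the median of all genes tested; under a common total the nuclear member median is -0.34 against 0.21 for all genes.

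Both subunits took part in the fall. Of the 51 large-subunit mRNAs, 44 were lower and 0 higher in nuclear BS2 pull-downs, with a median of -0.67. Of the 26 small-subunit mRNAs, 21 were lower and 2 higher, with a median of -0.57. In mitochondrial BS2 pull-downs 35 large-subunit mRNAs were lower and 2 higher (median -0.57), and 17 small-subunit mRNAs were lower and 2 higher (median -0.36). In cytosolic BS2 pull-downs the large subunit had 28 lower and 3 higher, and the small subunit 13 lower and 2 higher. In nucleolar BS2 pull-downs it was 32 lower and 7 higher for the large subunit and 15 lower and 4 higher for the small. The difference between subunits was not tested. Members were also split by protein name, universal or bacterial (uL, bL, uS, bS) against mitochondria-specific (mL, mS), which is not a split by descent. In nuclear BS2 pull-downs the large-subunit medians were -0.66 for the 30 with a universal or bacterial name (27 lower). They were -0.67 for the 21 with a mitochondria-specific name (17 lower), MRPS18A among them. In cytosolic BS2 pull-downs the small-subunit medians were -0.18 for the 16 with a universal or bacterial name (5 lower). They were -0.34 for the 10 with a mitochondria-specific name (8 lower), MRPS18B among them. Differences between these classes were not tested.

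Several mRNAs of large-subunit proteins were among the largest falls. MRPL12 is the stalk protein that recruits translation factors and lies at chr17:81703357-81707526 on the plus strand of GRCh38. Its mRNA stood at 53.9 and 54.0 CPM in cytosolic, 36.9, 33.3 and 44.2 CPM in nuclear, 38.02 and 35.46 CPM in mitochondrial and 26.9 and 29.6 CPM in nucleolar BS2 pull-downs, against 86.3, 80.4 and 106 CPM in NT pull-downs. No BS2 pull-down overlapped the NT pull-downs, and the nucleolar ones were lowest. The difference from NT was -0.73 ± 0.130 for cytosolic, -1.23 ± 0.116 for nuclear, -1.28 ± 0.130 for mitochondrial and -1.64 ± 0.130 for nucleolar BS2 (limma adjusted p 0.000257, 2.39e-07, 1.11e-06 and 3.53e-08). MRPL11, the stalk-base protein, fell by 0.87 in nuclear BS2 pull-downs, and MRPL10, which anchors the stalk, fell by 0.35, a call lost with a common total (-0.074).

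MRPL24 and MRPL23 belong to the proteins around the tunnel exit. MRPL24 (chr1:156737303-156741590, minus strand) had 34.5 and 33.2 CPM in cytosolic, 28.6, 22.6 and 29.4 CPM in nuclear, 28.9 and 27.6 CPM in mitochondrial and 24.3 and 28.5 CPM in nucleolar BS2 pull-downs, against 59.6, 64.6 and 72.2 CPM in NT pull-downs. MRPL23 (chr11:1947278-1984522, plus strand) had 24.0 and 22.4 CPM in cytosolic, 17.4, 18.9 and 25.4 CPM in nuclear, 18.4 and 14.5 CPM in mitochondrial and 13.9 and 17.1 CPM in nucleolar BS2 pull-downs, against 47.8, 43.0 and 52.6 CPM in NT pull-downs. Neither gene had a BS2 value within its NT range. MRPL24 differed from NT by -0.93, -1.26, -1.18 and -1.28 and MRPL23 by -1.01, -1.19, -1.49 and -1.57 in cytosolic, nuclear, mitochondrial and nucleolar BS2 pull-downs. MRPL45, which ties the ribosome to the inner membrane beside the exit, fell by 0.37, 0.87, 0.58 and 0.67 in the same order, and its cytosolic call was lost without either cytosolic library (-0.40 and -0.34) or NT replicate 3 (-0.31).

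MRPL41 (chr9:137551199-137552555, plus strand), a large-subunit protein specific to mitochondria and among the members richest in G and C, fell most in mitochondrial BS2 cells. It was at 12.4 and 12.4 CPM in cytosolic, 7.55, 8.41 and 14.8 CPM in nuclear, 7.03 and 7.78 CPM in mitochondrial and 7.46 and 7.86 CPM in nucleolar BS2 pull-downs, against 26.1, 21.8 and 25.3 CPM in NT pull-downs. The third nuclear library was higher than the other two and still below NT. The mitochondrial difference was -1.59 ± 0.204, a 3.02-fold fall (limma adjusted p 1.07e-05). MRPS26, a small-subunit protein specific to mitochondria, followed the same course with -0.75, -0.91, -1.25 and -1.23 in cytosolic, nuclear, mitochondrial and nucleolar BS2 pull-downs. Leaving out any 1 library ended none of the calls of MRPL12, MRPL23, MRPL24, MRPL41 and MRPS26 against NT.

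Nuclear BS2 gave further deep falls. MRPL33 fell by 1.19, MRPL51 by 1.15 and MRPS15 by 1.11, and the groups did not overlap for any of these genes. MRPL3, which lies near the peptidyl transferase centre, stood at 197, 169 and 160.0 CPM in nuclear BS2 and 299, 303 and 331 CPM in NT pull-downs, a difference of -0.83 ± 0.0836 (limma adjusted p 5.25e-07). Of the small-subunit genes, MRPS22 fell by 0.85, MRPS34 by 0.74 and MRPS16 by 0.62, whereas MRPS2 and MRPS25 were not called in nuclear BS2 pull-downs. MRPL18, whose bacterial counterpart binds 5S rRNA, fell by 0.63. The decoding-site protein MRPS12 fell by 0.70 (adjusted p 0.00143). MRPS36, the dehydrogenase component, differed by -0.74 in nuclear and -0.76 in nucleolar BS2 pull-downs, both called, while cytosolic (-0.15) and mitochondrial BS2 (-0.33) gave no call. Mitochondrial BS2 gave falls of 1.19 in both MRPL52 and MRPL55.

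The 3 MRPS18 paralogues descend from 1 bacterial protein and sit at different places, MRPS18A in the large and MRPS18B and MRPS18C in the small subunit. MRPS18A had 15.3, 13.1 and 19.6 CPM in nuclear BS2 and 25.1, 25.2 and 30.5 CPM in NT pull-downs, MRPS18B had 56.2, 55.2 and 61.6 CPM in nuclear BS2 and 79.8, 75.8 and 88.1 CPM in NT pull-downs, and both stayed below the NT range. They differed by -0.73 ± 0.134 and -0.49 ± 0.0799 (limma adjusted p 0.000206 and 7.3e-05). MRPS18C had 26.8, 22.6 and 24.4 CPM in nuclear BS2 and 23.9, 26.3 and 27.5 CPM in NT pull-downs, which overlap, and its difference of -0.07 was not called (adjusted p 0.593). Whether the paralogues differ from each other was not tested.

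Among other members with a known role, MRPL44, which has a ribonuclease III fold, differed by -0.25 in nuclear BS2 pull-downs against NT, and MRPL36, a small zinc-binding protein of the large subunit, by -0.37, both called (limma adjusted p 0.0297 and 0.0106). The MRPL44 call was lost without NT replicate 3 (-0.18), nuclear replicate 2 (-0.23) or nuclear replicate 3 (-0.19), and with a common total its difference turned to 0.027. MRPL36 stood at 17.4, 17.1 and 17.7 CPM in nuclear BS2 and 21.2, 20.8 and 26.7 CPM in NT pull-downs. MRPS7, which binds the head of the small-subunit rRNA, fell by 0.29 (adjusted p 0.0117). The calls of MRPL36 and MRPS7 were lost without NT replicate 3 (-0.26 and -0.19) and with a common total (-0.10 and -0.0095). MRPS16 had its lowest values in nucleolar BS2 pull-downs, at 85.7 and 74.1 CPM, against 145, 154 and 156 CPM in NT pull-downs, and was also lower there than in nuclear BS2 pull-downs (-0.30, adjusted p 0.0118), a call lost without nucleolar replicate 2 (-0.20).

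**Figure D3:**
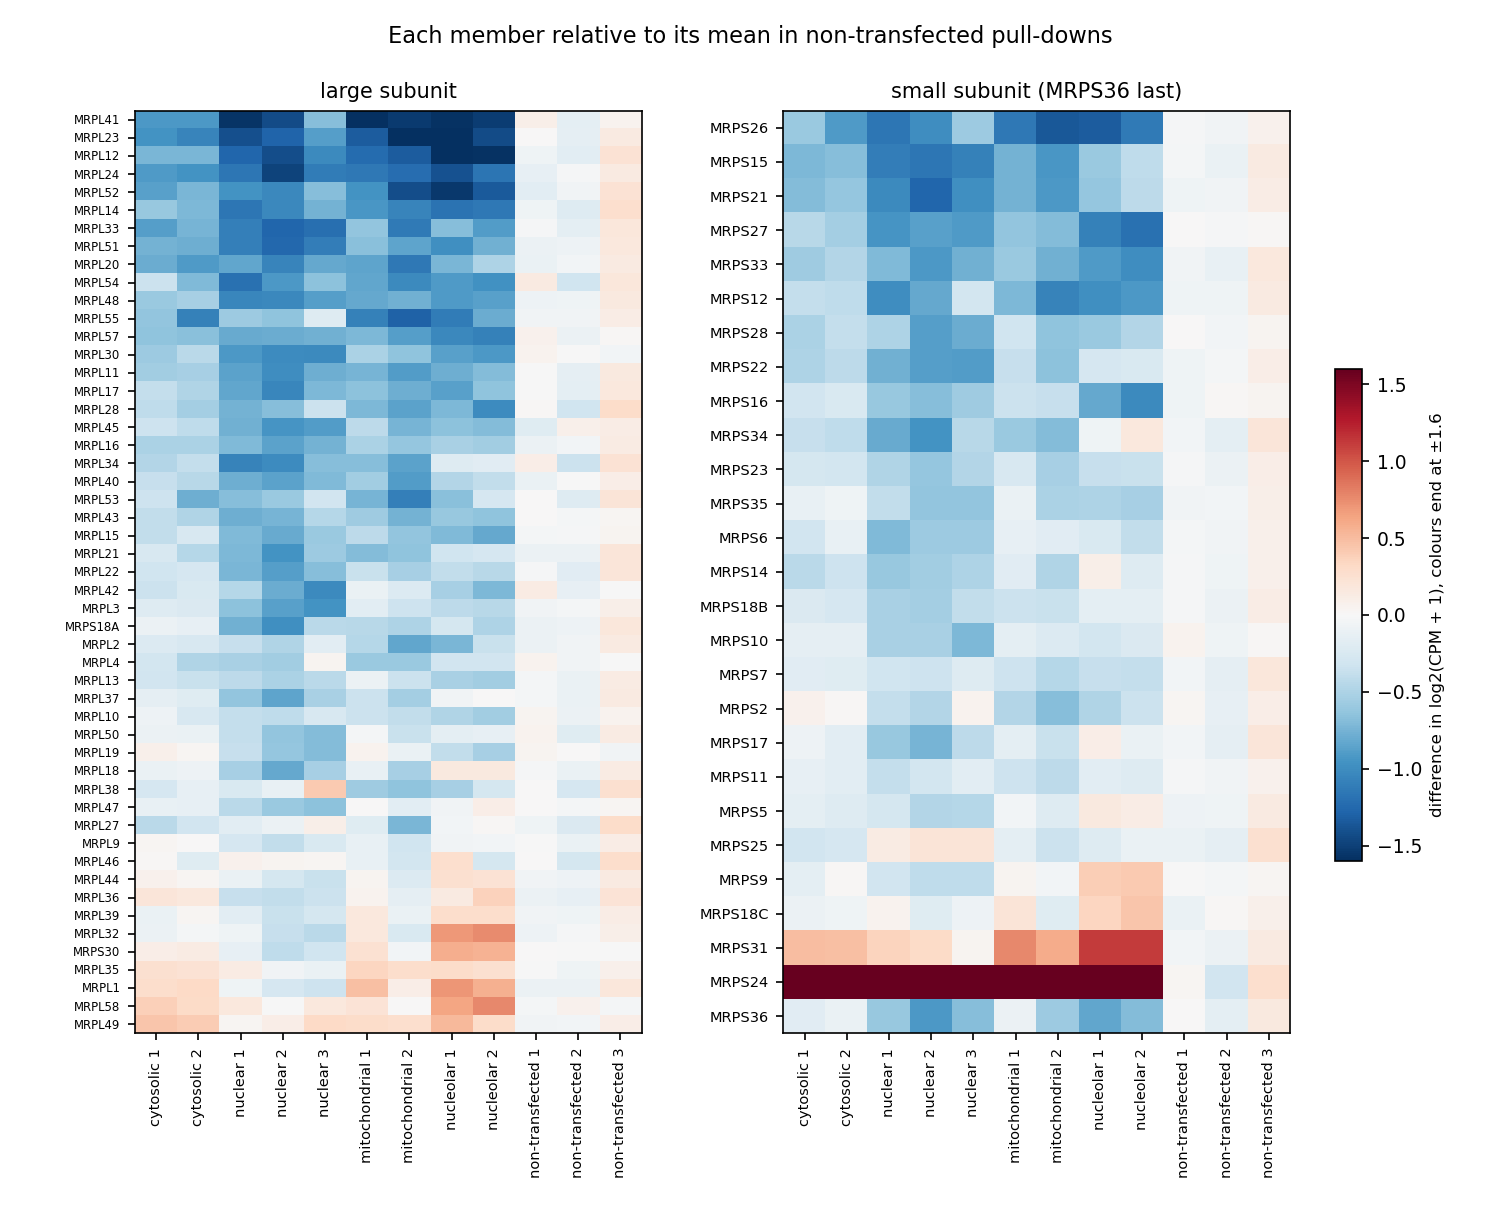
Difference of every member in each pull-down library from the mean of the 3 NT pull-downs, on the log2(CPM + 1) scale, with colours ending at ±1.6. MRPS24, with a mean difference of 3.13 over the nuclear BS2 libraries, lies beyond the colour scale. Most other members are below the NT mean in BS2 libraries, and a group with MRPS31, MRPL32, MRPL58 and MRPL1 is above it in the 2 nucleolar libraries.

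MRPS24 went the other way and by far the most. It encodes a small-subunit protein with a bacterial counterpart (uS3) that lines the mRNA entry channel, and lies at chr7:43866558-43869893 on the minus strand in 4 exons. Its mRNA had 291 and 255 CPM in cytosolic, 355, 529 and 474 CPM in nuclear, 182 and 164 CPM in mitochondrial and 429 and 349.7 CPM in nucleolar BS2 pull-downs, against 51.1, 40.5 and 60.8 CPM in NT pull-downs. Every BS2 library lay far above every NT library. MRPS24 rose by 2.42 ± 0.165 in cytosolic (5.35-fold), 3.13 ± 0.148 in nuclear (8.76-fold), 1.77 ± 0.165 in mitochondrial (3.40-fold) and 2.93 ± 0.165 in nucleolar BS2 pull-downs (7.60-fold), with limma adjusted p of 2.48e-08, 1.8e-10, 5.04e-07 and 1e-09. The inputs also differed, at 243 CPM for cytosolic, 275 CPM for nuclear and 128 CPM for mitochondrial BS2, against 101 CPM for NT, with 1 library each.

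The MRPS24 gene is spanned by the read-through gene URGCP-MRPS24, which was at 0 in all libraries except 1 NT pull-down (7.71 CPM) and 1 nuclear BS2 pull-down (0.215 CPM). The upstream gene URGCP stayed between 19.0 and 32.2 CPM in all libraries. How the authors divided reads between these overlapping genes is not given in the sources used here. No MRPS24 pseudogene is named in the annotation. With MRPS24 left out, the other 77 members had 66 lower and 1 higher call in nuclear BS2 pull-downs and a median of -0.62.

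MRPS31, a small-subunit protein specific to mitochondria, was the other member called higher in all 4 comparisons, as were 18.6% of all genes. It lies at chr13:40729135-40771173 on the minus strand. It had 47.5 and 47.0 CPM in cytosolic, 42.8, 41.3 and 34.5 CPM in nuclear, 57.7 and 50.8 CPM in mitochondrial and 73.5 and 73.4 CPM in nucleolar BS2 pull-downs, against 32.2, 31.1 and 36.9 CPM in NT pull-downs. The nucleolar libraries were highest, and 1 nuclear library lay within the NT range. The rise was 1.12 ± 0.111 in nucleolar (limma adjusted p 4.39e-07), 0.68 ± 0.111 in mitochondrial and 0.49 ± 0.111 in cytosolic BS2 pull-downs. The nuclear difference of 0.23 ± 0.0994 had an adjusted p of 0.0495 and lost its call when any of several libraries was left out, for example at 0.18 without the first nuclear library. The annotation names MRPS31 pseudogenes, none of which has a value in the table, so reads shared with them could have been divided in a way that is not known.

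Other rises were small or restricted to some constructs. MRPL49, a large-subunit protein specific to mitochondria, stood at 104 and 102 CPM in cytosolic BS2 and 73.3, 73.7 and 82.0 CPM in NT pull-downs and rose by 0.43 there, by 0.28 in mitochondrial and by 0.41 in nucleolar BS2 pull-downs. The mitochondrial call was lost without either mitochondrial library and the nucleolar call without the first nucleolar library (0.29). MRPL35 rose by 0.24, 0.32 and 0.27 in cytosolic, mitochondrial and nucleolar BS2 pull-downs, and each call was lost without 1 library of its own group. MRPL58 (ICT1), a release factor that rescues stalled ribosomes and is built into the large subunit, rose by 0.71 ± 0.107 in nucleolar BS2 pull-downs (45.1 and 49.7 CPM, against 27.9, 30.1 and 28.0 CPM in NT). Its cytosolic rise of 0.34 was lost without either cytosolic library.

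Nucleolar BS2 was where most of these rises fell. MRPL32, a large-subunit protein that is cut by the mitochondrial m-AAA protease before assembly, had 113 and 117 CPM in nucleolar BS2, against 65.4, 68.4 and 73.7 CPM in NT pull-downs. It was 65.8, 53.4 and 50.8 CPM in nuclear BS2 pull-downs, where the first library overlapped NT. The nucleolar rise was 0.73 ± 0.125 (limma adjusted p 0.00011). MRPL1, of the mobile L1 stalk, rose by 0.64 ± 0.127, MRPS30 by 0.57, MRPS9 by 0.40, MRPS18C by 0.40 and MRPL39 by 0.28. The calls of MRPS18C and MRPL39 were each lost on leaving out 1 library. MRPL52, at the other end, fell by 1.45, with 12.6 and 14.7 CPM in nucleolar BS2 and 34.4, 37.2 and 45.8 CPM in NT pull-downs, and MRPS27 fell by 1.13.

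MRPL32, MRPL39, MRPS30 and MRPS9 were called lower in nuclear and higher in nucleolar BS2 pull-downs. The nuclear differences were -0.29, -0.27, -0.28 and -0.37, and under a common total they were -0.01, 0.01, -0.01 and -0.09 with no call. Without the second nuclear library the nuclear calls of MRPL32, MRPL39 and MRPS30 were also lost. MRPL32 shares its locus (chr7:42932200-42948958, plus strand) with PSMA2, a proteasome subunit gene on the opposite strand. PSMA2 was at 67.7 and 66.4 CPM in nucleolar BS2 and 168, 167 and 197 CPM in NT pull-downs, so the overlapping pair differed in opposite directions. Whether the counting used strand is not given in the sources used here.

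**Figure D4:**
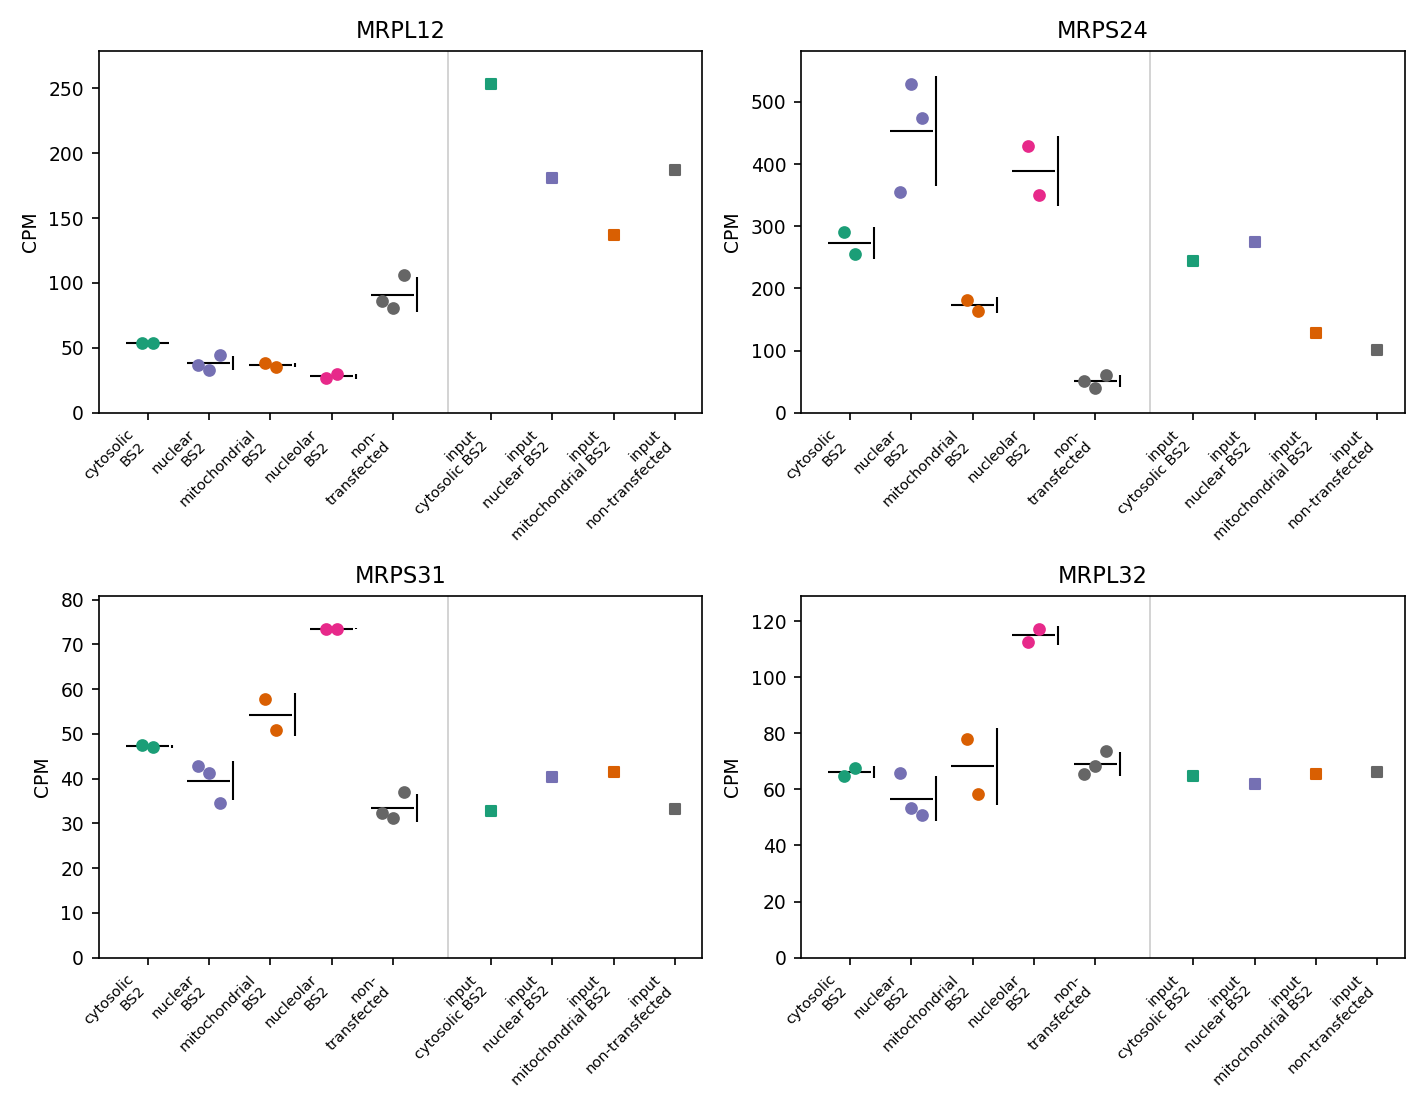
CPM of MRPL12, MRPS24, MRPS31 and MRPL32 in each library, with circles for pull-downs, a line for the group mean, a bar for the SD and squares for the single inputs. MRPL12 is lower in every BS2 pull-down than in NT, MRPS24 is higher in every one, and MRPS31 and MRPL32 are highest in the 2 nucleolar libraries.

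The constructs were then compared with each other, which leaves NT out. Nuclear against cytosolic BS2 gave 39 members lower and 2 higher, where 23.2% of all genes were lower and 10.2% higher, with a member median of -0.31 against -0.12 for all genes. MRPL19 had 106, 88.5 and 83.6 CPM in nuclear BS2 and 144 and 139 CPM in cytosolic BS2 pull-downs and fell by 0.62 ± 0.0996 (limma adjusted p 0.0005). MRPL3 fell by 0.61, MRPL18 by 0.53 and MRPL45 by 0.50. MRPS24 rose by 0.71 and MRPS25 by 0.47, calls that were lost without the second (0.62) and the first cytosolic library (0.44). These counts turn on how libraries are scaled and on single libraries. A common total left 3 lower and 4 higher with a member median of -0.08 (all genes 0.10), and quantile normalization left 20 lower. Fewer members were lower without the first or the second cytosolic library. The number of all genes called in this comparison also moved when single libraries were left out.

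Mitochondrial against cytosolic BS2 gave no call among the members in limma, where 0.198% of all genes were lower and 0.632% higher. At an unadjusted p under 0.05, 16 members were lower and 0 higher, and the smallest adjusted p was 0.0736, for MRPS2. With 2 libraries on each side the intervals were wide. MRPL12 differed by -0.54 with a 95% interval of -0.85 to -0.24, and MRPS24 by -0.65 with an interval of -1.04 to -0.27 (limma adjusted p 0.0901 and 0.106). The 13 mRNAs encoded in mitochondrial DNA were all called higher in the same comparison, by a median of 2.65. Their summed share also differed between the single inputs, at 3.29% for mitochondrial and 0.602% for cytosolic BS2. A fit of the 4 mitochondrial and cytosolic BS2 pull-downs alone called 7 members lower and robust moderation 1. When the third nuclear library was left out, 4 were lower. Calls over all genes also moved when single libraries were left out.

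Mitochondrial against nuclear BS2 gave 20 members higher and 4 lower, where 17.7% of all genes were higher and 9.84% lower, with a member median of 0.16 that turned to -0.10 under a common total (3 higher and 17 lower, all genes -0.17). MRPL42 had 259 and 238 CPM in mitochondrial BS2 and 202, 160.3 and 137 CPM in nuclear BS2 pull-downs, and MRPL3 had 277 and 246 CPM against 197, 169 and 160.0 CPM. Neither gene overlapped between the groups, and they rose by 0.59 ± 0.129 and 0.58 ± 0.0934 (limma adjusted p 0.00425 and 0.0008). MRPL19 rose by 0.53. MRPS24 fell by 1.36 ± 0.165. Without the first mitochondrial library fewer members were higher, and MRPL42 lost its call (0.53). The number of all genes called also moved when single libraries were left out.

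Nucleolar against nuclear BS2 gave 33 members higher and 6 lower, where 16.6% of all genes were higher and 17.9% lower. The member median was 0.18 against -0.05 for all genes, and -0.02 against -0.22 under a common total, with 21 higher and 18 lower members and 1700 higher against 5549 lower calls among all genes (2679 and 2888 with the deposited scaling). Relative to all genes the members were above by 0.22 and 0.20 under these scalings. MRPL32 rose by 1.02 ± 0.125 (2.02-fold, limma adjusted p 2.58e-05), MRPS31 by 0.88, MRPL1 by 0.86, MRPS34 by 0.79, MRPL18 by 0.78 and MRPS9 by 0.78. MRPS30 had 126 and 125 CPM in nucleolar BS2 and 76.8, 63.5 and 67.4 CPM in nuclear BS2 pull-downs and rose by 0.85. Of the 6 that fell, MRPL52 had the largest difference, -0.56, which lost its call without the first nucleolar library. Without the second nucleolar library fewer members were higher, and calls over all genes also moved when single libraries were left out. By subunit, 20 of 51 large-subunit and 13 of 26 small-subunit mRNAs were higher.

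Most members were lower in pull-downs than in the inputs they came from. Averaged over the 4 kinds of cell with an input, 63 of 78 members were lower and 5 higher in pull-downs than in inputs, where 32.0% of 16693 genes were lower and 39.7% higher. The member median was -0.70 and that of all genes 0.08, and each input is 1 library that was assumed to vary like the pull-downs. Large-subunit mRNAs had a median of -0.88 (41 of 51 lower) and small-subunit mRNAs -0.53 (21 of 26 lower). MRPL41 had 7.03 to 14.8 CPM in BS2 pull-downs and 21.8 to 26.1 CPM in NT pull-downs, against 49.1 to 71.2 CPM in the inputs, and fell by 2.17 ± 0.130 (4.52-fold, limma adjusted p 5.96e-09). MRPL54 fell by 1.93, MRPL12 by 1.84 and MRPS12 by 1.81.

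The members that rose on enrichment were MRPL42, MRPL35, MRPL19, MRPS31 and MRPS30. MRPL42 had 219 and 235 CPM in cytosolic, 202, 160.3 and 137 CPM in nuclear, 259 and 238 CPM in mitochondrial and 305, 254 and 277 CPM in NT pull-downs, against inputs of 128, 118, 164 and 187 CPM for the same cells. Each pull-down was above its own input, and the rise was 0.61 ± 0.0852 (limma adjusted p 1.25e-05). The other 4 rose by 0.25, 0.23, 0.21 and 0.17, and the last 3 lost their calls without the cytosolic input (0.16, 0.11 and 0.11). None of the 5 rises was called once a trend in transcript length and GC was removed from each library, with MRPL42 at 0.032, MRPL19 at 0.095, MRPL35 at -0.10, MRPS31 at -0.19 and MRPS30 at -0.47 (the last 3 reversed in sign).

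The share of G and C in the transcript ran with enrichment. Across the 78 members the correlation between transcript GC and the pull-down difference from input was -0.77 (Pearson), and across 14157 genes it was -0.67. These are descriptions over genes, which share libraries and are no replicates. The 26 members lowest in GC had a median difference of -0.13 with 5 higher and 12 lower, the middle 26 had -0.66 with 26 lower, and the 26 highest had -1.21 with 25 lower. The log2 of transcript length had a correlation of 0.50 with the same difference (0.46 over the 14157 genes, which have a protein-coding transcript).

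GC also ran with several differences between constructs. For mitochondrial against cytosolic BS2 the correlation was -0.76 over members and -0.32 over 13855 genes, and for mitochondrial against nuclear BS2 -0.66 and -0.58. For mitochondrial against nuclear BS2 the 26 members lowest in GC held 14 of the 20 that were higher and none that was lower, while the 26 highest in GC held 3 of the 4 that were lower. Against NT the correlation over members was -0.21 for cytosolic, -0.03 for nuclear, -0.47 for mitochondrial and -0.25 for nucleolar BS2. Over the 13855 genes it was -0.15, 0.04, -0.27 and -0.11. Without MRPS24 the member values were -0.40, -0.19, -0.63 and -0.38 in the same order. The median GC of the members was 49.6% (51.5% for the large and 47.9% for the small subunit). It was 48.9% for the 13855 genes tested that have a protein-coding transcript. The median transcript was 1458.5 bases for members and 3221 bases for these 13855 genes. With the length and GC trend removed, 12 members were higher in mitochondrial against nuclear BS2 in place of 20. The part of GC in these results was not otherwise tested.

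**Figure D5:**
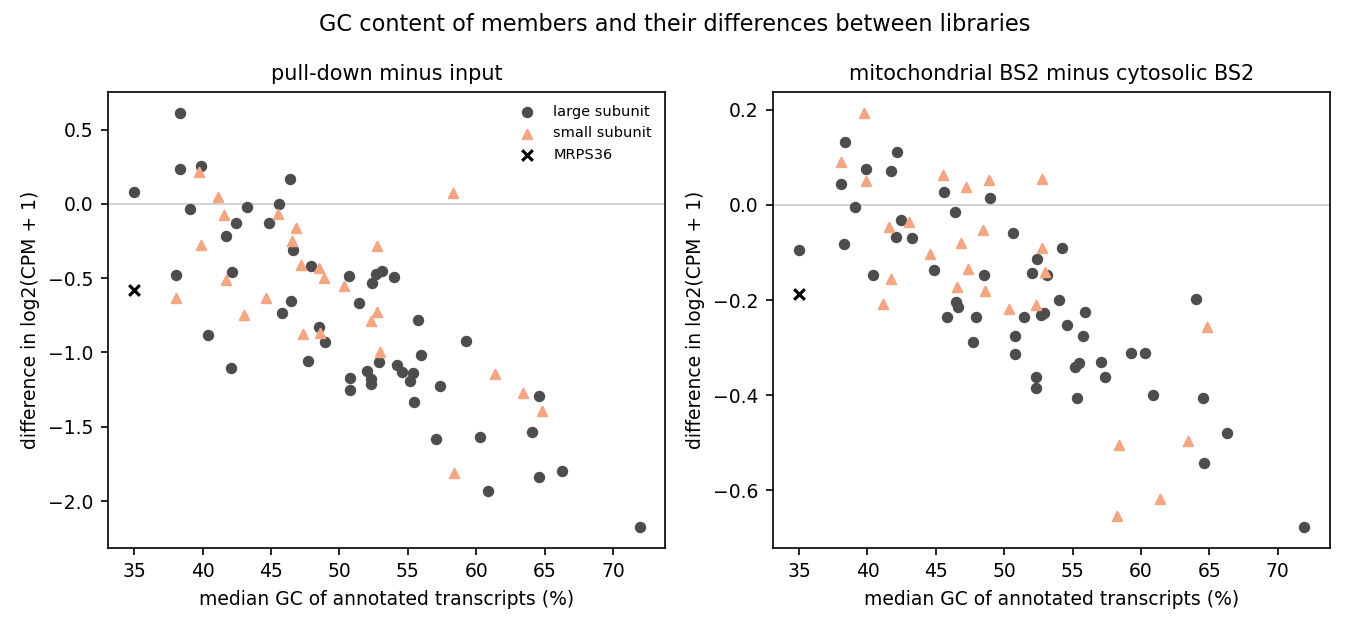
GC content of 1 principal transcript per member (percent, horizontal axis) against the member's difference in log2(CPM + 1). The axis label says median, but the values are those of that 1 transcript. The left side is pull-down minus input and the right side mitochondrial BS2 minus cytosolic BS2, with 1 point per member and a shape for its subunit. Differences are lower in members of higher GC on both sides (Pearson -0.77 and -0.76, n = 78).

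The difference from NT was then taken relative to each cell's own input. For nuclear BS2, 36 members were lower and 1 higher after this correction, where 8.94% of all genes were lower and 7.63% higher. For mitochondrial BS2, 10 were lower and 1 higher (3.40% and 6.16% of all genes), and for cytosolic BS2 5 were lower and 1 higher (2.77% and 5.74%). In simulated data these comparisons recovered 47% (nuclear), 48% (mitochondrial) and 48% (cytosolic) of 2-fold changes. The comparisons with NT without input correction recovered 91%, 92% and 96%. Counts with and without the correction therefore differ in power and cannot be set against each other. The member medians were -0.58 for nuclear, -0.39 for mitochondrial and -0.24 for cytosolic BS2, against -0.01, 0.05 and 0.05 for all genes. MRPL12, MRPL20, MRPL23 and MRPL51 were lower in all 3, MRPL12 by 1.18 ± 0.227 in nuclear, 0.83 ± 0.234 in mitochondrial and 1.17 ± 0.234 in cytosolic BS2 (limma adjusted p 0.00397, 0.0406 and 0.0107). MRPS24 was the single member called higher, by 1.70 ± 0.301, 1.44 ± 0.311 and 1.16 ± 0.311 in the same order. The counts moved with single libraries, over 19 to 43 for nuclear, 1 to 20 for mitochondrial and 1 to 12 for cytosolic BS2. Calls over all genes moved with single libraries as well. The inputs of the cells compared could not be left out, being 1 library each. No single other library ended the calls of MRPL12 in nuclear and cytosolic, of MRPL20 and MRPL51 in nuclear, and of MRPS24 in nuclear and mitochondrial BS2, whereas the other calls of these genes and those of MRPL23 were lost without at least 1.

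Levels per kilobase of transcript set the members in order in NT pull-downs. MRPL3 was highest at 182 ± 10.1 CPM per kb (SD, n = 3), followed by MRPL18 at 131 ± 11.4, MRPL51 at 118 ± 12.4, MRPL20 at 115 ± 10.8 and MRPL37 at 109 ± 9.84 CPM per kb. MRPL3 was set apart from MRPL18 by more than their SDs, whereas MRPL18, MRPL51, MRPL20 and MRPL37 each overlapped the next within 1 SD. The lowest were MRPS11 at 11.3 ± 0.545, MRPS23 at 13.6 ± 0.996, MRPL53 at 13.8 ± 2.10, MRPS25 at 15.4 ± 2.46 and MRPS12 at 15.5 ± 1.402 CPM per kb. MRPS11 and MRPS23 were apart by more than their SDs, and the other neighbours in this order overlapped within 1 SD. Each length is that of 1 principal annotated transcript per gene and need not match the form expressed, so the order rests on that choice.

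Promoters of the family were searched for the letters of known transcription factors. RefSeq promoters on GRCh38.p14, 250 bases before to 50 after the start, were found for 69 of 78 members. The ETS core CCGGAAG was in 29 of these (42.0%, against 10.7% of 27305 promoters) and the YY1 letters AAGATGGC in 20 (28.99%, against 3.03%), searched on both strands. Letters of NRF1, a factor known for genes of the respiratory chain, were in 8 (11.6%, against 6.28%), CCAAT in 20 (28.99%, against 35.7%) and TATAAA in 2 (2.90%, against 11.95%). A promoter stretch of MRPS18A, at chr6:43687792-43687891 on the minus strand, is shown as an example that holds the ETS letters, in capitals.
MRPS18A: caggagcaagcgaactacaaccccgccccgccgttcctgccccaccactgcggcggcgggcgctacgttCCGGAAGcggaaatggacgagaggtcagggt
Of the 69 promoters, 41 held ETS or YY1 letters and 8 held both. A match of letters is a description and shows no binding.

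Other genes of mitochondrial translation gave a mixed picture against NT. Of the 5 mitoribosomal proteins with other symbols, 4 fell in mitochondrial BS2 pull-downs, AURKAIP1 by 1.19, CHCHD1 by 0.91, GADD45GIP1 by 0.81 and DAP3 by 0.30, the last lost without the second mitochondrial library (-0.24). PTCD3 differed by 0.09. In nuclear BS2 pull-downs 4 of the 5 also fell. Of 32 genes listed as assembly factors, 11 fell and 5 rose in mitochondrial and 11 fell and 7 rose in nuclear BS2 pull-downs. The medians were -0.19 and -0.21, and the shares of falls were near the 27.0% and 34.2% of all genes called lower. TMEM177, whose part in ribosome assembly is not established here, fell by 1.16 with mitochondrial BS2. The GTPase MTG1 fell by 0.95, C1QBP by 0.88 and RPUSD3 by 0.83 in the same pull-downs. The 5 that rose were the methyltransferase genes METTL15 (0.79), NSUN4 (0.61), MRM2 (0.57) and MRM1 (0.54), and MTERF4 (0.29), whose call was lost without the first mitochondrial library (0.17) or NT replicate 2 (0.25).

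Translation factors were divided too, whereas calls among the genes for charging mitochondrial tRNAs were mostly falls. Of 19 translation factors and related genes tested of 20 listed, 7 fell and 4 rose in mitochondrial BS2 pull-downs and 11 fell and 3 rose in nuclear ones, where 27.0% of all genes were lower and 28.9% higher with mitochondrial and 34.2% and 32.2% with nuclear BS2. COX14 fell by 1.27, the insertase gene OXA1L by 0.98 and the elongation factor gene TUFM by 0.95 with mitochondrial BS2, whereas the release factor gene MTRF1L rose by 1.01. Of 20 genes for charging mitochondrial tRNAs, 11 fell and 2 rose with mitochondrial and 10 fell and none rose with nuclear BS2, against the same shares of all genes. With nucleolar BS2 17 fell and 2 rose, where 35.6% of all genes were lower and 30.1% higher. With cytosolic BS2 6 fell and 2 rose, where 22.4% were lower and 28.9% higher. SARS2 (seryl-tRNA synthetase) fell by 0.77 with mitochondrial BS2, while QRSL1, of the glutamyl-tRNA amidotransferase, rose by 0.55 and RARS2 (arginyl-tRNA synthetase) by 0.42. The 13 mRNAs made inside mitochondria were all higher with mitochondrial BS2, with a median of 1.498, and all lower with nuclear BS2, with a median of -1.52. With nucleolar BS2 9 of the 13 were also higher and 0 lower (median 0.57). With cytosolic BS2 all 13 were lower (median -1.21). Taken relative to the single inputs, 0 of the 13 were called for mitochondrial BS2 (median 0.11). For nuclear BS2 all 13 were still lower (median -1.89).

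The proteins of cytosolic ribosomes are the nearest counterpart of the members, and the median differences of their mRNAs from NT were larger. Of 79 cytosolic ribosomal protein genes tested of 81 in the table, 78 were lower in each of the 4 BS2 pull-down groups against NT. Their median difference was -1.04 in cytosolic, -1.68 in nuclear, -1.34 in mitochondrial and -1.44 in nucleolar BS2 pull-downs, against member medians of -0.29, -0.62, -0.47 and -0.43. In pull-downs against inputs 78 of 79 were lower, with a median of -0.96 against -0.70 for the members. The difference between the families was not tested. Between constructs, the median of the cytosolic ribosomal protein genes was -0.63 for nuclear against cytosolic BS2, where the members had -0.31, and -0.31 for mitochondrial against cytosolic BS2, where the members had -0.18. It was 0.34 for mitochondrial against nuclear BS2 (members 0.16) and 0.17 for nucleolar against nuclear BS2 (members 0.18).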

How the data were processed

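The deposited table, per the labels, holds filtered and TMM-normalized expression, and its values are log2 CPM as the authors made them. Per the submitters' processing notes, STAR 2.7.9a, Salmon 1.4.0, limma and GRCh38 were used, with no role or order given. Every library has the same lowest value, and CPM was recovered by raising 2 to that log2 value and subtracting 0.166. The design had foreseen a log2 of CPM, and the unit matched. Of 39823 entries, 14906 have no value, and 39 names listed more than once with identical values were kept once. The most frequent non-zero CPM level of a library was taken as 1 read. It gave an estimated depth of 6.34 to 20.01 M reads (M for mega) and limits the precision of low genes. By library, 79.9% to 90.1% of low values were whole multiples of that level.

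The test was limma 3.58.1 under R 4.3.3, with a mean-variance trend and Benjamini-Hochberg adjustment over every gene that reached 1 CPM in 2 or more libraries. Levels entered it as log2(CPM + 1), the scale on which fold changes of low genes are understated. The 12 pull-downs gave 8 comparisons, and all 16 libraries gave the comparisons with inputs. Tables were made with Python 3.11.15 and pandas 2.3.3. The fits were tested on simulated data. Members, lists and tests were chosen with earlier results of these data known. Named genes were the 10 largest falls and the 10 largest rises among called members whose groups do not overlap, members with a known role, the 5 highest and 5 lowest members, and up to 4 genes of each list, and the text gives a selection of them. Transcript GC and length are those of 1 principal protein-coding transcript per gene in GENCODE 29, the longest where several are marked so. Only the removal of a length and GC trend used medians over all transcripts of a gene. In that annotation 34 members have a named pseudogene (0 of 75 MRP pseudogenes have a value), and 23 are overlapped by another gene on the same strand and 38 on the opposite strand, so how reads were shared is uncertain for them. Alternatives were other pseudocounts (0.5 and 2 CPM), filters, scalings, moderation, sets of libraries, replicate blocks, removal of a length and GC trend, and each library left out. Same-numbered libraries did not deviate together throughout (correlations of -0.02, 0.07 and 0.15 for nuclear BS2 with NT, the groups with 3 pairs, and -0.17 to 0.16 over all groups, with 0.14 and 0.16 for nuclear with mitochondrial BS2), so numbers were not taken as pairs.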

Additional observations from a re-analysis of the deposited data

Results flagged for a closer look

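The difference between pull-down and input was tested between BS2 cells and NT cells, 1 gene at a time (limma, adjusted p under 0.05, each input 1 library). Genes are listed here because that test passed for them, and the counts of members were not themselves tested. For nuclear BS2, 36 members had a lower and 1 a higher pull-down over input than in NT, for mitochondrial BS2 10 and 1, and for cytosolic BS2 5 and 1. Of all genes, 8.94% were lower and 7.63% higher for nuclear, 3.40% and 6.16% for mitochondrial and 2.77% and 5.74% for cytosolic BS2. MRPL12 differed by -1.18 in nuclear, -0.83 in mitochondrial and -1.17 in cytosolic BS2. MRPL23 differed by -0.89, -1.09 and -1.04, MRPL51 by -0.94, -0.74 and -0.72, and MRPL20 by -1.04, -0.91 and -1.09 in the same order. MRPS24 differed by 1.70, 1.44 and 1.16. In the inputs MRPL12 stood at 181 CPM for nuclear, 137 CPM for mitochondrial and 254 CPM for cytosolic BS2, against 187 CPM for NT. Outlying libraries within a group were not tested, since groups hold 1 to 3, and the effect of leaving out each library is given with the processing.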

How the results depend on the processing

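Counts are of members lower than the reference unless said. With a common total, nuclear BS2 against NT had a median of -0.34, nuclear against cytosolic 3 (-0.0799), mitochondrial against nuclear 3 higher with a median turned to -0.10, nucleolar against nuclear 21 higher with a median turned to -0.0166, input-corrected nuclear 18 (-0.39) and input-corrected mitochondrial 19. For nuclear against NT, MRPL39 turned to 0.0060, MRPL44 to 0.027 and MRPS18C to 0.20. With median-of-ratios scaling the medians were -0.32 for nucleolar against NT and -0.20 for nuclear against cytosolic. With quantile normalization they were -0.44 for cytosolic against NT, -0.17 for nuclear against cytosolic (count 20), -0.82 for pull-down against input and -0.51 for input-corrected mitochondrial (count 24), the input-corrected cytosolic count was 13, and MRPS30 turned to -0.0053 in pull-down against input. With no filter the input-corrected cytosolic count was 2. With no trend the input-corrected counts were 2 (cytosolic), 16 (nuclear) and 1 (mitochondrial). With the length and GC trend removed, mitochondrial against cytosolic had 1, mitochondrial against nuclear 12 higher, input-corrected cytosolic 13 and mitochondrial 23, and in pull-down against input MRPL35 turned to -0.10, MRPS31 to -0.19 and MRPS30 to -0.47, against NT MRPS18C turned to 0.077 in nuclear and -0.18 in mitochondrial BS2, and PTCD3 to -0.055 in mitochondrial BS2. Robust moderation gave 1 for mitochondrial against cytosolic. With only the groups compared, mitochondrial against cytosolic had 7, mitochondrial against nuclear 10 higher, input-corrected cytosolic 16 and nuclear 14. The cause of these changes was not tested.

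Leaving out each library gave 24 to 44 for cytosolic, 57 to 66 for nuclear, 40 to 56 for mitochondrial (median -0.59 to -0.35) and 42 to 50 for nucleolar against NT. It gave 11 to 46 for nuclear against cytosolic, 0 to 4 for mitochondrial against cytosolic (median -0.26 to -0.0706), 2 to 26 higher for mitochondrial against nuclear (median 0.0689 to 0.27), 21 to 34 higher for nucleolar against nuclear and 59 to 65 for pull-down against input (median -0.77 to -0.58). Input-corrected counts, with the inputs of the cells compared always kept, were 1 to 12 (cytosolic), 19 to 43 (nuclear) and 1 to 20 (mitochondrial, median -0.49 to -0.31). The number of all genes called also moved in each of these comparisons, so the ranges of counts do not describe the members alone. MRPS18C, mitochondrial against NT, was between -0.20 and 0.21. Of 4126 values of named genes under all alternatives, 3933 kept direction and call, 162 lost a call, 18 gained one and 13 changed sign. These come from 158 named differences, of which 103 kept direction and call under every alternative. Leaving out a library outside the groups compared moves the spread but not the difference, so the many kept values overstate stability. With replicate numbers as a block, mitochondrial against cytosolic had 3, MRPS18A turned to 0.010 for cytosolic against NT, and libraries share only a number. No paired analysis was possible for comparisons with inputs because the inputs share no replicate numbers with the pull-downs beyond 1 library. Depth limits little here, since every member exceeded 6.87 CPM or equalled it in every library.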
